A study of Mus musculus with 65 samples.

Results

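Prestin, the protein of the gene Slc26a5, is the motor that lets outer hair cells (OHCs) of the cochlea change length. Its transcripts were described here as 1 row of a table of 55292 genes, counted in 65 single mouse OHCs at postnatal day 10. The cells fell into 17 labelled CKO and 48 labelled WT. Mice of the CKO group carried Atoh1Cre/+ with both Casz1 alleles floxed (Casz1flox/flox), together with Slc26a5FlpO/+ and the nuclear green reporter Rosa26FSF-H2BEGFP/+. Mice of the WT group carried the same Slc26a5FlpO/+ and Rosa26FSF-H2BEGFP/+ alleles without Cre and without floxed Casz1. The study asked what loss of Casz1, a zinc finger transcription factor, does to hair cells. Atoh1 is active in hair cell precursors, so Cre driven by it acts in inner and outer hair cells alike and in some other Atoh1 lineages.

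Both groups carried a recombinase at 1 copy of Slc26a5. Cells were recognised by a reporter that this allele switches on, so every cell had used the Slc26a5 locus before it was picked, and the presence of the transcript is no finding. The sources used here do not say what the FlpO insertion does to transcripts of its own allele. Levels in both groups are therefore those of Slc26a5FlpO/+ cells, and no cell with 2 unmodified copies was analysed here.

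Prestin belongs to the SLC26 family of anion transporters, but in mammals it works mainly as a voltage sensor. Densely packed in the lateral wall of the OHC, it changes its area in the membrane when the voltage changes, which shortens or lengthens the cell and feeds energy back into the vibration of the cochlea. Chloride from the cytoplasm is needed for this, and the spectrin and actin skeleton under the membrane is known to act with it. In mice the transcript builds up after birth as hearing begins. Inner hair cells, which pass sound on to the nerve, have little of it.

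Slc26a5 (ENSMUSG00000029015.9) lies on the minus strand of chromosome 5, at 21810655 to 21865604 in GRCm38. Its annotated exons merge into 20 blocks with 3072 bases in all, and no exon of another gene overlaps them on either strand. The 250 bases before the RefSeq transcription start (GRCm38.p6, chr5:21865605-21865854, minus strand) are shown because they are the control region nearest to the transcript counted here. Capitals mark a GATA motif and a core motif of the Ikaros family, to which the OHC regulator Ikzf2 belongs.

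Slc26a5 promoter: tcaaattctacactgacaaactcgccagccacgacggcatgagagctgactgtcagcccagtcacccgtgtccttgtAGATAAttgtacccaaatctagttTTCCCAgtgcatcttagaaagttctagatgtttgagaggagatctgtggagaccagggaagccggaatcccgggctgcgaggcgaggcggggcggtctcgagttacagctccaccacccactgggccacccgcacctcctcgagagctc

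This stretch had a GC content of 56% and 13 CpG dinucleotides. Searched on both strands, it held the GATA motif AGATAA once, starting 173 bases before the start, as 9.99% of 32851 RefSeq promoter windows of this length did. It held the Ikaros family core TGGGAA once, 149 bases before the start and in the reverse orientation TTCCCA, a motif found in 21.6% of windows. It held 1 GC box (GGGCGG, in 32.7% of windows), 60 bases before the start. None of the letters AGGTCA (a nuclear receptor half-site, in 14.02% of windows), TATAAA (in 12.4%), ATGCAAAT (the POU octamer, in 1.60%) or the E-box CANNTG (in 66.2%) stood in this window. The motifs found did not overlap each other. A match is a run of letters and shows no binding.

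The libraries were deep enough that the counting error of reads was small beside the spread between cells. The sampling error of molecules cannot be told from these counts. CKO cells held 8239671 to 15320549 counts and WT cells 7458126 to 17107710, and a median of 7417 and 7585.5 genes had a count. Levels are given as CPM, counts per 1000000 counts of a cell or of all cells of a group summed. Intervals are exact Poisson or conditional binomial ones at 95% and cover counting error only, since reads carry no molecular identifiers and 1 molecule can give many of them. The labels name no animal or litter, so each genotype stands as 1 sample, no difference has a replicate check and no test was run. As a description of overlap, the share of all pairs of 1 cell from each side in which the first had the higher CPM is given.

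The cells differed in ways that the genotype labels do not name. Per cell, mt-Co2, a mitochondrially encoded gene, lay at 94.8 to 283 CPM in CKO cells. It lay at 33.5 to 83.6 CPM in the run of WT cells 1 to 11, at 229 to 644 CPM in the run 12 to 45 and at 100.1 to 111 CPM in the run 46 to 48. These runs of WT cell numbers were set from mt-Co2 in an earlier analysis of these data, without use of Slc26a5, and the labels name no batch. Counts of Xist and of 4 Y-linked genes gave an Xist pattern in 15 of 17 CKO cells and 9 of 48 WT cells, 8 of which lie in WT cells 1 to 11. A Y pattern was found in 37 WT cells and in no CKO cell. Genotype, Xist pattern and run of cells therefore cannot be told apart in full. Casz1 itself stood at 46.2 CPM in CKO cells and 53.3 CPM in WT cells, which checks no label, since the sources used here do not say which exons are floxed.

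Ocm, the OHC calcium buffer oncomodulin, had counts in all 65 cells and had the highest CPM of all genes in both groups. Of 48 markers of supporting cells, neurons, glia, macrophages, mesenchyme, endothelium and erythroid cells, 16 reached 5 CPM in a group. Their summed level ran from 1291 to 5150 CPM per cell in CKO cells and from 1267 to 6198 CPM in WT cells, most of it from S100a1, a calcium-binding protein gene that hair cells also express. Without S100a1 the sum was 222 to 1378 CPM in CKO cells and 145 to 1600 CPM in WT cells, and 16 of the 48 markers had no count in any CKO cell and 11 in no WT cell. The summed level of 10 genes enriched in inner hair cells ran from 1428 to 5220 CPM in CKO cells and from 557 to 4594 CPM in WT cells. Highest of these were Calb2, at 1431 CPM in CKO cells and 1647 CPM in WT cells, and Cabp2, at 839 and 754 CPM. Otof followed at 81.6 and 170 CPM, and Slc17a8 stood at 17.1 and 12.1 CPM.

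Slc26a5 was counted in every cell, by at least 1888 reads in a CKO cell and at least 446 reads in a WT cell. In CKO cells the lowest, median and highest values were 226, 1292 and 1668 CPM, and in WT cells they were 54.8, 650 and 2269 CPM. The ranges overlapped over their whole length on the CKO side: no CKO cell lay above the highest WT cell, and 3 WT cells lay below the lowest CKO cell. Of the 17 CKO cells 16 lay above the WT median, and 9 of 48 WT cells lay above the CKO median. CKO cells averaged 1177 ± 346 CPM and WT cells 866 ± 553 CPM (SD over cells, n = 17 and 48 cells).

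**Figure D1:**
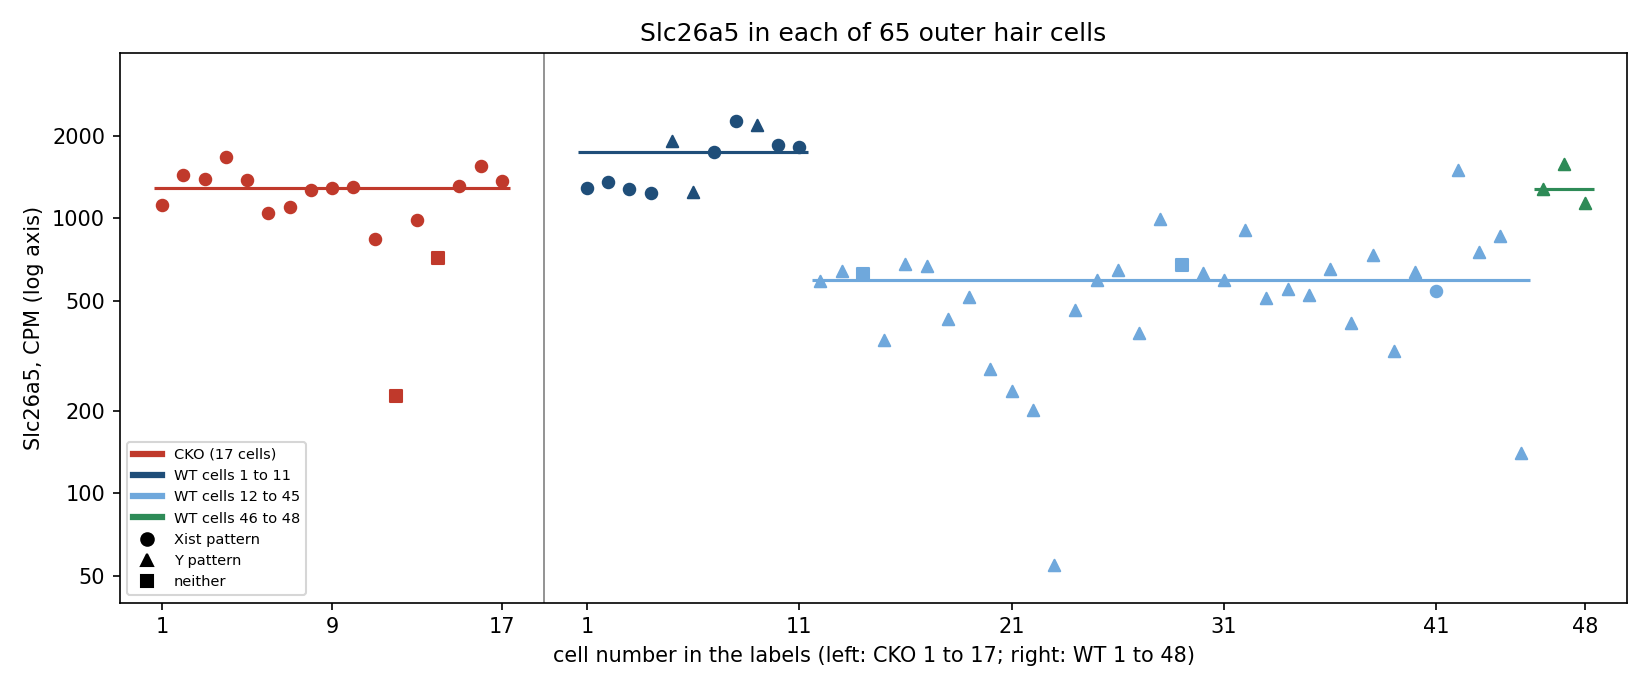
Slc26a5 in CPM on a log axis against the cell number of the labels, CKO cells on the left and WT cells on the right. Each point is 1 cell, coloured by group or run, with its shape giving the Xist or Y pattern, and horizontal lines are medians. CKO cells centre on 1292 CPM, while WT cells 12 to 45 lie around 595 CPM, below nearly all cells of the other 2 WT runs.

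Summed over cells, Slc26a5 stood at 1175 CPM in CKO cells (1171 to 1180) and at 931 CPM in WT cells (929 to 934). The log2 ratio of CKO over WT was 0.34 (0.33 to 0.34), a 1.26-fold difference, and the CKO cell was the higher in 72.1% of 816 pairs. Of 10842 genes that reached 5 CPM on the higher side, 50.4% had a higher CPM in CKO cells and 15.1% were higher by at least 2-fold, a size that Slc26a5 did not reach. The ratio of 33.9% of these genes was larger than that of Slc26a5. Its pair share was less common, for 135 genes, 1.25%, had a larger share than Slc26a5. A cut of at least 70% of pairs, which lies just below its own share, was reached by 1.95% of the genes.

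The direction rested on which WT cells were set against the CKO cells. The 1175 CPM of CKO cells stood beside 1649 CPM for WT cells 1 to 11, 576 CPM for WT cells 12 to 45 and 1332 CPM for WT cells 46 to 48. The log2 ratio of CKO over these sets was -0.49, 1.03 and -0.18. CKO cells were higher in 23.5%, 90.7% and 39.2% of pairs. Among cells with the Xist pattern, the 15 CKO cells stood at 1260 CPM and the 9 WT cells at 1497 CPM, a log2 ratio of -0.25 with the CKO cell higher in 36.3% of pairs. Of these 9 WT cells 8 are WT cells of the run 1 to 11, so this comparison largely repeats that with the run.

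Against WT cells 12 to 45 alone the separation was wide. CKO cells ran from 226 to 1668 CPM with a median of 1292 CPM, and these WT cells ran from 54.8 to 1505 CPM with a median of 595 CPM. Of the 17 CKO cells 16 lay above the median of the 34 WT cells, and 1 of the 34 lay above the CKO median. The fold was 2.04, and 16.6% of 10874 genes had a larger ratio in the same comparison. A cut of at least 90% of pairs lies just below the share of Slc26a5 itself. It was reached by 0.0460% of the genes, 5 genes in all with Slc26a5 among them. The other 4 were Xist, the adhesion gene Nlgn1, Tmem87a and the predicted gene Gm5844, which are named here after their values were seen.

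Within the WT label the same transcript differed more than between the labels. WT cells 1 to 11 had lowest, median and highest values of 1238, 1740 and 2269 CPM, and WT cells 12 to 45 had 54.8, 595 and 1505 CPM. WT cells 46, 47 and 48 held 1278, 1572 and 1135 CPM. In all, 33 of the 34 cells numbered 12 to 45 lay below the lowest of cells 1 to 11, and 33 lay below the lowest of cells 46 to 48. The exception was WT cell 42, at 1505 CPM, the next highest cell of its run being WT cell 28 at 998 CPM.

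The log2 ratio of WT cells 1 to 11 over WT cells 12 to 45 was 1.52 (1.51 to 1.53), a 2.86-fold difference, and the cell from the first run was higher in 98.7% of 374 pairs. In this comparison 15.7% of 10882 genes were higher by at least 2-fold and 19.8% were lower by at least 2-fold, and 10.4% of genes had a larger ratio than Slc26a5. A larger pair share than that of Slc26a5 was found for 6 genes. Pair shares here and above were set against all genes that reached 5 CPM, not against genes of like abundance. The cell from the first run was higher in at least 95% of pairs, again a cut below the share of Slc26a5, for 8 genes (0.0735%). Besides Slc26a5 these were the copper chaperone gene Cox17, the mitochondrial leucyl-tRNA synthetase gene Lars2, the mitochondrial tRNA gene mt-Tq, CT010467.1, CT010467.2, Gm15564 and Gm25541, chosen after their values were seen.

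Of those 7 genes only CT010467.1 and Lars2 passed 100 CPM in the first run. Cox17 was low in both, at 7.31 CPM in WT cells 1 to 11 and 0.21 CPM in WT cells 12 to 45. In the second run it had a count in 11 of 34 cells. CT010467.1, annotated as ribosomal RNA, stood at 1863 CPM in CKO cells, at 3856 CPM in WT cells 1 to 11, at 801 CPM in WT cells 12 to 45 and at 2177 CPM in WT cells 46 to 48. Lars2 stood at 355, 811, 178 and 804 CPM in the same order. Both thus had the lowest level in WT cells 12 to 45, as Slc26a5 did. The level of mt-Co2 was highest there, but the runs were set from mt-Co2 itself. Exons of CT010467.1 overlap Gm42418 and AY036118, so its counts are uncertain. The part of these differences in the level of Slc26a5 was not tested.

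Over all WT cells, those with the Xist pattern stood at 1497 CPM and those with the Y pattern at 772 CPM. Of the 9 Xist-pattern WT cells 8 lie in WT cells 1 to 11, so pattern and run cannot be told apart in full. The part of the pattern in these levels was not tested. Among WT cells 1 to 11, the 8 cells with the Xist pattern held 1593 CPM and the 3 cells with the Y pattern 1795 CPM, a log2 ratio of -0.17. WT cells 46 to 48 all had the Y pattern and were high, and the cells of the run 12 to 45 mostly had it and were low. The single Xist-pattern cell among WT cells 12 to 45 stood at 542 CPM, below the 595 CPM median of its run. The run was itself uneven, with 634 CPM in WT cells 25 to 45 and 447 CPM in WT cells 12 to 24, a log2 ratio of 0.50, with the cell from the later numbers higher in 71.8% of pairs.

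The 3 neighbours of Slc26a5 with counts in most cells differed less between the runs. Psmc2, a proteasome subunit gene 6867 bases away, stood at 122.9 CPM in CKO cells and 139 CPM in WT cells, and its log2 ratio of WT cells 1 to 11 over 12 to 45 was 0.42. Dnajc2, a cochaperone gene, stood at 17.6 CPM in CKO cells and 30.97 CPM in WT cells, with 0.52 between the runs. Pmpcb, a subunit of the peptidase that trims imported mitochondrial proteins, stood at 107 CPM in CKO cells and 72.1 CPM in WT cells, with 0.38 between the runs. Reln, the gene of the matrix protein reelin 18849 bases away on the other side, had counts in 1 of 17 CKO cells and 8 of 48 WT cells, with -0.80 between the runs. Gm10475, which overlaps exons of Reln on the other strand, had no count in CKO cells and counts in 3 WT cells. It stood at 8.80 CPM in WT cells 1 to 11 and 1.06 CPM in WT cells 12 to 45, a log2 ratio of 3.05. Of the 6 predicted genes and pseudogenes nearest to Slc26a5, 4 had no count in any cell, and none passed 4 CPM in a group.

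The spread of Slc26a5 between cells depended on the set as well. The coefficient of variation (CV, SD over mean) was 29.4% over CKO cells and 63.9% over WT cells. It was 23.4% over WT cells 1 to 11 and 47% over WT cells 12 to 45. Among genes between 500 and 2000 CPM, 14.2% of 226 genes varied less than Slc26a5 over CKO cells, where the median CV was 42%, and 94.5% of 220 genes varied less over WT cells, where it was 41.4%. Within WT cells 1 to 11 the share was 14.7% and within WT cells 12 to 45 it was 67.4%. Slc26a5 was thus among the less variable genes of its abundance in CKO cells and in WT cells 1 to 11, and among the more variable ones over all WT cells.

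Single cells set much of the CKO spread. CKO cell 12 held 226 CPM, the lowest of its group, and without it the CV was 20.4%. It also had 5938 genes with a count, a total of 8368739, neither the Xist nor the Y pattern and 88794 CPM of Ocm, the highest of all 65 cells. Its summed level of the genes enriched in inner hair cells, 5220 CPM, was likewise the highest of all 65 cells. The other CKO cell with neither pattern, cell 14, held 718 CPM, the next lowest of its group, and without both cells the CV was 17.2%. In WT cells the lowest values were 54.8 CPM in cell 23, 140 CPM in cell 45, 202 CPM in cell 22, 235 CPM in cell 21 and 282 CPM in cell 20. WT cell 23 had the fewest genes with a count, 5426, and Chrna9 at 0.12 CPM, yet 45169 CPM of Ocm. WT cell 45 had 7377 genes with a count and 22883 CPM of Ocm.

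Slc26a5 was higher in cells with more genes detected, in all 3 sets large enough to be described. Spearman's rho was 0.24 over 17 CKO cells, 0.63 over 11 WT cells 1 to 11 and 0.47 over 34 WT cells 12 to 45. With the total count of the cell, rho was -0.29, -0.018 and 0.22. These values share the libraries that both measures come from and are given as descriptions. The part of cell quality in the lowest Slc26a5 values was not tested.

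By summed CPM, not corrected for length, Slc26a5 ranked 73 among all genes in CKO cells and 105 in WT cells, with 0.118% and 0.0931% of all counts. In single cells its rank had a median of 72 (best 44, worst 1027) in CKO cells and 201.5 (best 34, worst 2446) in WT cells. The rank over sums was 49 in WT cells 1 to 11, 214 in WT cells 12 to 45 and 65 in WT cells 46 to 48.

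Levels of different genes were compared per kilobase (kb) of exon. On that scale Slc26a5 stood at 383 CPM per kb in CKO cells and 303 CPM per kb in WT cells, rank 123 and rank 166 of 53180 genes with a length. In WT cells the genes just above it were Pnrc1, a nuclear receptor coactivator, the respiratory assembly factor Cox14, Itm2b, the complex I subunit Ndufa11 and the lipase gene Pla2g7. The genes just below were the proteasome subunits Psmd6 and Psmd8, 4930558C23Rik, AI593442 and the complex I subunit Ndufa13, all 10 between 296 and 307 CPM per kb. The quartiles of Slc26a5 over single WT cells, 168 and 409 CPM per kb, took in the summed levels of 201 other genes. They describe a spread between cells that spans WT runs of unlike level. Whether any of these genes differed from Slc26a5 was not tested. Over CKO cells the quartiles, 342 and 450 CPM per kb, took in 42.

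Among OHC-enriched genes Slc26a5 was neither the most abundant nor rare. Ocm stood far above it, at 67084 CPM per kb in CKO cells and 50024 CPM per kb in WT cells. Lmod3, a leiomodin that nucleates actin filaments, stood at 993 CPM per kb in CKO cells and 895 CPM per kb in WT cells, and the calcium-binding sorcin gene Sri at 664 and 587 CPM per kb in the same order. The other 9 genes lay below Slc26a5 in both groups. Highest of these was Chrna9, a subunit of the nicotinic receptor through which efferent nerves inhibit OHCs, at 266 CPM per kb in CKO cells and 209 CPM per kb in WT cells. Its partner subunit Chrna10 stood at 99.5 and 92.8 CPM per kb, and Strip2 at 117 and 169 CPM per kb. Ikzf2 was at 34.7 and 27.2 CPM per kb.

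All 12 OHC-enriched genes passed 5 CPM, and CKO cells had more of 8 and less of 4, beside 50.4% higher among all genes. None was higher by at least 2-fold (15.1% of all genes were), and 2 were lower by that much (14.5% of all genes). Their median log2 ratio was 0.16, beside 0.0092 over all genes tested, so that the 0.34 of Slc26a5 lay above the list's median. Dnm3, a dynamin, and Lbh, a transcription cofactor, each stood at 0.47, Ocm at 0.42, Ikzf2 at 0.35 and Chrna9 at 0.35. Sri stood at 0.18, Lmod3 at 0.15 and Chrna10 at 0.10. Among the 4 that were lower in CKO cells were Kcnn2, the SK2 potassium channel that follows the nicotinic receptor, at -0.29, Strip2 at -0.53 and Insm1, a factor of early OHC development, at -2.43. Insm1 had a count in 1 of 17 CKO cells and 15 of 48 WT cells.

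Between the WT runs Slc26a5 stood apart from the 12 in size. Its log2 ratio of WT cells 1 to 11 over 12 to 45 was 1.52, while the 12 ran from -0.62 for Kcnn2 to 0.91 for Ikzf2, with a median of -0.11 and -0.042 over all genes tested. None of the 12 was at least 2-fold apart in either direction. Ocm was at 0.47, Lbh at 0.27, Chrna9 at -0.13 and Strip2 at -0.17. Exons of Ikzf2, Chrna10, Kcnn2 and Dnm3 overlap genes on the other strand, and the sources used here do not say whether the counting used strand.

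**Figure D2:**
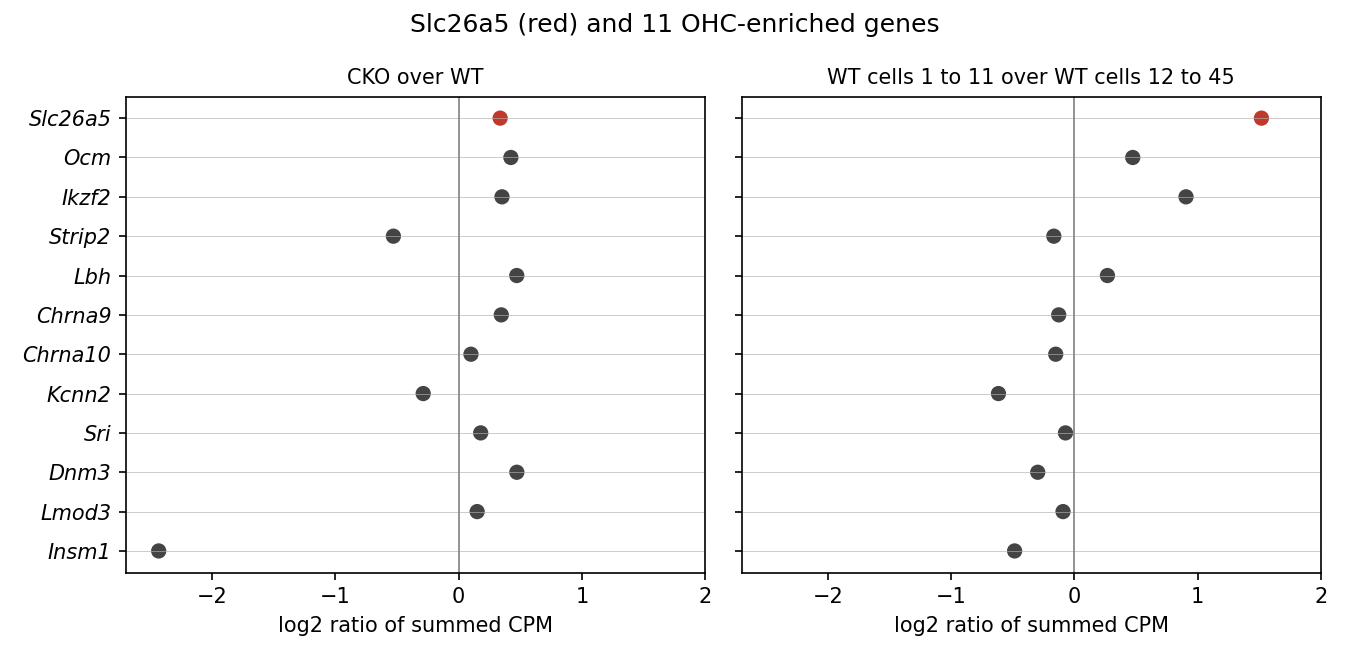
Log2 ratios of summed CPM for Slc26a5 (red) and 11 OHC-enriched genes, CKO over WT on the left and WT cells 1 to 11 over WT cells 12 to 45 on the right. Slc26a5 lies among the other genes on the left, at 0.34, and beyond all of them on the right, at 1.52.

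Ocm offers a yardstick that does not depend on the total of a cell, but it is not a fixed one. Its own log2 ratio was 0.42 for CKO over WT and 0.47 for WT cells 1 to 11 over 12 to 45. For every 100 reads of Ocm there were 2.39 reads of Slc26a5 in CKO cells and 2.54 in WT cells, a difference of -0.087 on the log2 scale. Per cell this ratio of reads, not corrected for length, had a lowest, median and highest value of 0.254, 2.34 and 4.25 in CKO cells and of 0.121, 2.16 and 5.78 in WT cells. The groups overlapped along nearly the whole range. It was 3.59 in WT cells 1 to 11, 1.74 in WT cells 12 to 45 and 4.21 in WT cells 46 to 48, so the order of the runs found with CPM held for the 2 high runs against the low one. The CKO value lay between the low and the high WT runs. Without CKO cell 12 the log2 difference of CKO and WT was 0.015, the other direction.

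Within a set, cells with more Slc26a5 did not have more Ocm. Spearman's rho of their CPM was -0.40 over CKO cells, -0.31 over WT cells 1 to 11 and -0.11 over WT cells 12 to 45. Ocm ran from 30576 to 88794 CPM in CKO cells and from 12218 to 61361 CPM in WT cells. Ocm took 4.92% of counts in CKO cells and 3.67% in WT cells. With Ocm left out of the totals, the log2 ratio of Slc26a5, CKO over WT, was 0.36.

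**Figure D3:**
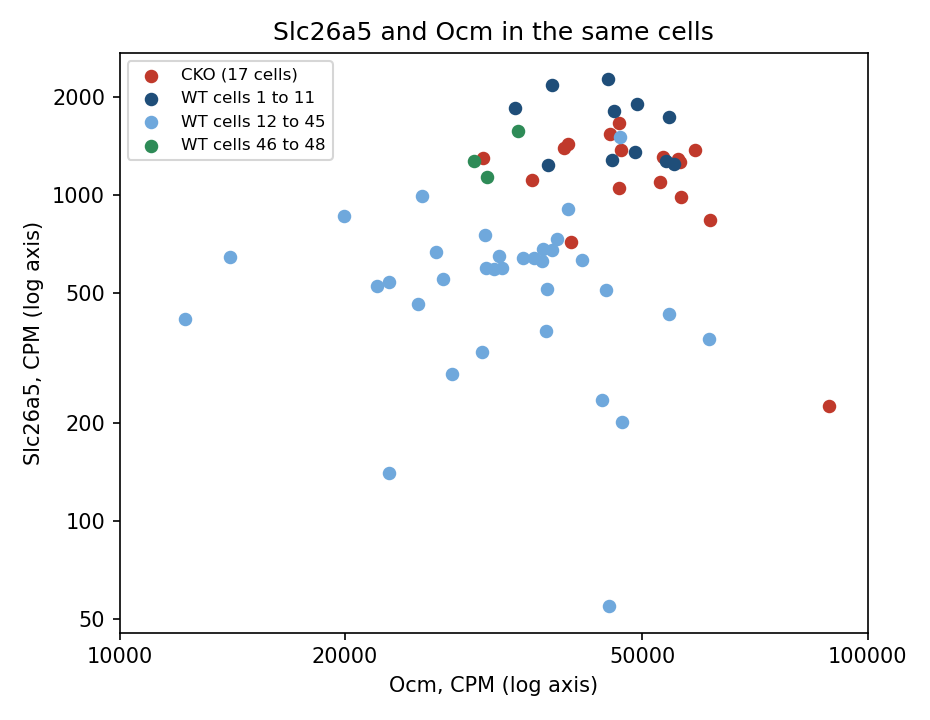
Slc26a5 against Ocm in the same cells, both in CPM on log axes, with 1 point per cell coloured by group or run. WT cells 12 to 45 lie low on the Slc26a5 axis over most of the Ocm range, and the CKO cell with the most Ocm, 88794 CPM, is the one with the least Slc26a5, 226 CPM.

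Likeness to Slc26a5 was described by Spearman's rho over cells within CKO cells, WT cells 1 to 11 and WT cells 12 to 45, averaged over the 3 sets, so that the differences between sets did not enter. Of 2772 genes with a median of at least 20 CPM in each set, the mean rho had a median of 0.017, with the 1st and 99th percentiles at -0.35 and 0.36, and the highest was 0.43. The genes most like Slc26a5 therefore stood only a little beyond the bulk. At the top were the endosomal Rab adaptor gene Rab11fip3 and Car12, a carbonic anhydrase of the cell surface. They were followed by the Golgi GTPase gene Rab6a and the aquaporin Aqp11. The other 8 were Clu, Slc25a11, Rchy1, Tspan2, Ncl, Lmo7, Ndrg3 and Tmem248, down to a mean rho of 0.40. Exons of Rab11fip3, Rab6a, Slc25a11, Rchy1, Tspan2 and Tmem248 overlap genes on the other strand, so their counts are less certain.

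Among these 12 genes Aqp11 had the highest CPM, 1708 CPM in CKO cells and 1546 CPM in WT cells, with rho of 0.17 over CKO cells, 0.64 over WT cells 1 to 11 and 0.46 over WT cells 12 to 45. Ndrg3 had the most even values, 0.40, 0.39 and 0.40 in the same order. Lmo7, a gene of cell junctions, had rho of 0.52 and 0.71 in the first 2 sets and -0.034 in the third. The list was not stable: with Pearson's r of log2(CPM + 1) 2 of the 12 stayed among the top 12, with a floor of 100 CPM 6 and with edgeR's TMM factors 4. Between the WT runs, where Slc26a5 had a log2 ratio of 1.52, the 12 ran from -1.70 for Tmem248 to 0.60 for Car12.

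The lowest mean rho, -0.51, was that of a predicted or unnamed gene, which was passed over. The next 6 were Apoo, a gene of the mitochondrial inner membrane with a mean rho of -0.51, Cebpzos, the ribosomal protein gene Rpl26, the ferritin heavy chain gene Fth1, the pyruvate carrier gene Mpc1 and Cabp2, a calcium sensor of the hair cell synapse. Exons of Cebpzos and Mpc1 also overlap genes on the other strand. A positive rho in each of the 3 sets was found for 461 genes, 16.6% of the 2772.

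The abundant OHC transcripts were spread over the range of rho. Chrna10 was the OHC-enriched gene most like Slc26a5 among those measured broadly enough, with a mean rho of 0.28 and 5.23% of genes more like it. Ikzf2 and Dnm3 had 0.20 each, Chrna9 0.15, Strip2 0.14, Sri 0.087, Lmod3 0.074, Lbh 0.018 and Kcnn2 -0.14. Ocm, at -0.27, lay near the other end, with 96.4% of genes more like Slc26a5. Strip2 and Dnm3 reached 0.53 each over CKO cells, but lay between -0.081 and 0.051 over both WT runs.

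**Figure D4:**
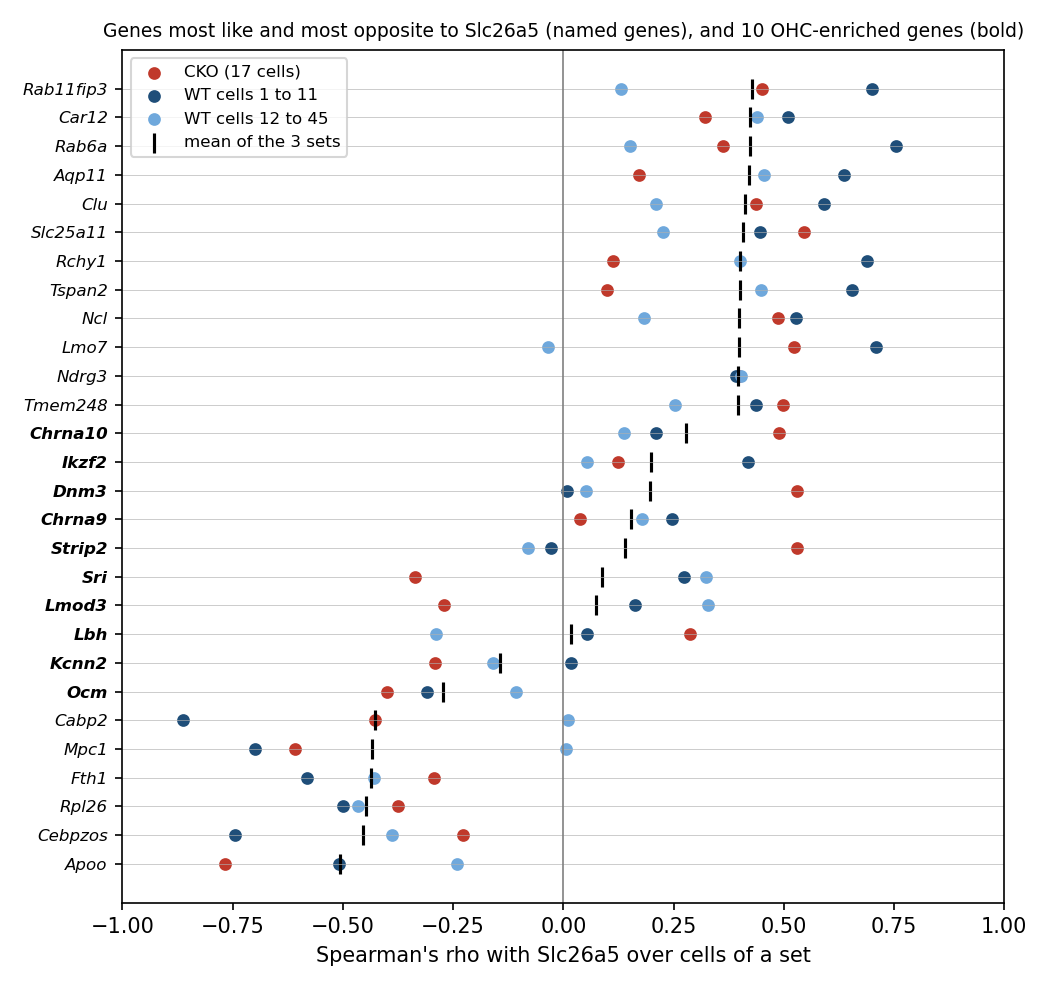
Spearman's rho with Slc26a5 over the cells of 3 sets (coloured points) and its mean (black tick), for the 12 genes most like it, 6 of the 7 most opposite and 10 OHC-enriched genes (bold). Most genes differ widely between sets, and Ocm lies left of 0 in all 3.

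Counts of the relatives of Slc26a5 were sparse. Of the 10 other Slc26 family genes looked up, which encode transporters of anions such as chloride, sulfate and bicarbonate, 2 reached 5 CPM in a group. Slc26a2, a sulfate transporter gene, stood at 18.5 CPM in CKO cells, with a count in 6 of 17, and at 10.4 CPM in WT cells, with a count in 8 of 48. Slc26a6, an anion exchanger gene, stood at 16.6 CPM in CKO cells and 0.53 CPM in WT cells, with a count in 4 and 3 cells. Slc26a7 had no count in any cell. Slc26a4, the pendrin gene of the surrounding epithelium, had a count in no WT cell and stood at 0.0050 CPM in CKO cells. Slc26a1, Slc26a8 and Slc26a11 lay at 0 to 4.73 CPM in either group, and Slc26a3, Slc26a9 and Slc26a10 at 0.015 CPM or less.

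Regulators of hair cells and of the prestin gene gave no common direction. Of 14 such genes 12 reached 5 CPM, and CKO cells had more of 4 and less of 8, none by 2-fold (median log2 ratio -0.26), beside 50.4% of all genes higher. Ikzf2, which drives the OHC program in mice, stood at 403 CPM in CKO cells and 316 CPM in WT cells. Thyroid hormone is known to raise prestin transcription, and its receptor genes Thra and Thrb stood at 49.1 and 26.1 CPM in CKO cells, and at 31.6 and 50.2 CPM in WT cells. Pou4f3, without which hair cells die, stood at 811 CPM in CKO cells and 973 CPM in WT cells, and Gata3 at 405 CPM in CKO cells and 381 CPM in WT cells. Isl1 stood at 426 CPM in CKO cells and 235 CPM in WT cells, with the CKO cell higher in 75.1% of pairs, a share beyond that of Slc26a5.

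Between the WT runs, 1 of the 12 regulators was at least 2-fold higher in WT cells 1 to 11, Casz1 with a log2 ratio of 1.07. The retinoid receptor gene Rxra, a partner of the thyroid hormone receptors, was lower by that much, at -1.82. Of all genes, 15.7% were higher and 19.8% lower by 2-fold in this comparison, so these counts do not exceed the background. Ikzf2 held 466 CPM over WT cells 1 to 11, 249 CPM over WT cells 12 to 45 and 337 CPM over WT cells 46 to 48. It thus kept the order of the runs that Slc26a5 had, with 69.8% of pairs higher in the first run, against 98.7% for Slc26a5.

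Genes of proteins that bind prestin or stand beneath the lateral wall were looked up next. Of 17 looked up 12 passed 5 CPM, and CKO cells had more of 9 and less of 3, with 1 member higher by at least 2-fold and a median log2 ratio of 0.26. Of all genes, 50.4% were higher and 15.1% higher by 2-fold. The member higher by 2-fold was Epb41l3, a membrane skeleton gene at 33.1 CPM in CKO cells and 7.90 CPM in WT cells. It had a count in 7 of 17 CKO cells and 11 of 48 WT cells, with a median of 0 CPM in both groups. Vapa, a gene of a membrane tether of the endoplasmic reticulum, stood at 372 CPM in CKO cells and 300.3 CPM in WT cells. The actin genes Actb and Actg1 stood at 315 and 934 CPM in CKO cells and at 171 and 1180 CPM in WT cells, and so differed in direction. The erythroid-type beta spectrin gene Sptb stood at 338 CPM in CKO cells and 347 CPM in WT cells. The alpha spectrin gene Sptan1 stood at 126 CPM in CKO cells and 98.4 CPM in WT cells. The spectrin Sptbn5 stood at 0.59 CPM in CKO cells and 0.038 CPM in WT cells. The sugar transporter gene Slc2a5 had no count in CKO cells and stood at 0.0055 CPM in WT cells, and Cftr had no count in any cell.

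Genes that move chloride, the ion prestin needs, pointed in both directions. Of 20 looked up 16 passed 5 CPM, and CKO cells had more of 6 and less of 10. By at least 2-fold, none was higher and 3 were lower, and the median log2 ratio was -0.18. Of all genes, 15.1% were higher and 14.5% lower by that much, and 50.4% were higher by any size. Lrrc8b, a subunit of the volume-regulated anion channel, stood at 167 CPM in CKO cells and 240 CPM in WT cells. Clcn4, a chloride and proton exchanger gene, stood at 189 CPM in CKO cells and 134 CPM in WT cells. The sodium, potassium and chloride cotransporter gene Slc12a2 stood at 29.6 CPM in CKO cells and 53.1 CPM in WT cells. Clic4 stood at 1.24 CPM in CKO cells and 24.7 CPM in WT cells. It had a count in 2 of 17 CKO cells and 27 of 48 WT cells, and Slc12a2 had one in 8 and 36. The medians of the OHC-enriched, regulator, lateral wall and chloride lists all lay below the 0.34 of Slc26a5.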

How the data were processed

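Per the labels' protocols, single OHCs were picked after enzymatic digestion, full-length cDNA was made with a Smart-Seq HT kit and libraries by tagmentation. The protocol text speaks of inner and induced hair cells, and titles and the series design, which name OHCs, were followed. The authors deposited whole-number counts per gene. Per the submitters' processing notes, HISAT2 2.2.1, StringTie 2.2.1 and featureCounts 2.0.1 were used on mm10; the sources used here do not give the annotation, strand setting or filters. No cell was left out, no doublet caller was run on singly picked cells, and no columns were identical. CPM and ratios were computed with Python 3.11.15 and pandas 2.3.3, and scaling factors with edgeR 4.0.16 and DESeq2 1.42.0. Positions and exon lengths came from GENCODE M21, which holds 96.4% of the symbols. By these positions, exons of further named genes overlap genes on the other strand. Among them are Thra, Gata3, Casz1, Sptb, Sptbn5, Clcn4, Pla2g7, Ndufa11 and Ndufa13. Patterns needed 10 counts of Xist or of the Y-linked genes and fewer of the other. The gene, lists and runs were chosen with earlier results of these data known. Genes were named by list, position or likeness, passing over predicted and unnamed genes in the last, and others are marked as chosen later. Some members of the lists are not reported here.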

Additional observations from a re-analysis of the deposited data

How the results depend on the processing

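The log2 ratio of Slc26a5, CKO over WT, was 0.34. It was 0.44 with the mean and 0.99 with the median of per-cell CPM, 0.29 with TMM and 0.46 with DESeq2 factors, 0.30 without mitochondrially encoded and ribosomal protein genes, 0.36 without Ocm, 0.44 after thinning and 0.15 with totals of at least 10000000 (13 CKO and 32 WT cells). It reversed against WT cells 1 to 11 (-0.49), WT cells 46 to 48 (-0.18) and among Xist-pattern cells (-0.25), 3 of 15 settings, and was 1.03 against WT cells 12 to 45. The Xist-pattern setting is not independent of the first, since 8 of its 9 WT cells lie in WT cells 1 to 11. Chosen after seeing the data were WT cells 12 to 24 (1.39), WT cells 25 to 45 (0.89) and leaving out the 2 CKO cells with neither pattern (0.44). Leaving out each cell in turn gave 0.31 to 0.39. The rank in CKO cells, 73, was 123 per length and 64 without mitochondrially encoded and ribosomal protein genes. The rank in WT cells, 105, was 166, 95 and, as a median over cells, 201.5. The CV over CKO cells ran from 20.4% to 30.5% with 1 cell left out and was 17.2% without the 2 cells. The CV over WT cells ran from 61.8% to 64.9%, and was 71.0% with TMM factors, 23.4% in WT cells 1 to 11 and 47% in WT cells 12 to 45. The log2 difference of Slc26a5 over Ocm, -0.087, was 0.12 from per-cell medians and 0.46 against WT cells 12 to 45, both reversed. It was -0.59 against WT cells 1 to 11, -0.82 against WT cells 46 to 48 and -0.40 among Xist-pattern cells, and ran from -0.13 to 0.015, which is reversed, with 1 cell left out. The cause of these moves was not tested. No paired analysis was possible because the numbers are names of cells and nothing was tested. The effect of animals, litters and batches could not be examined, because the labels name none.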
